A study of Mus musculus with 9 samples.

Results

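Interferon-stimulated genes, the genes that a cell switches on when it senses interferon, were followed in nuclei of the mouse heart by single-nucleus RNA sequencing (sNuc-seq). The members were a list of 39 named genes, taken as rows of the expression tables and read by cell type, myeloid subtype, group and mouse. Rows were found for 37 of the 39 genes among the 23747 genes of the tables. Mx1 and Mx2 were not analysed here. The list was chosen by name and not by the values below, although earlier results of these data were known when it was drawn up.

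The hearts came from 9 C57BL/6 mice, 8 weeks old when supplied, in 3 groups of 3 mice. Sham mice were gavaged with vehicle, sodium carboxymethyl cellulose in water, over 7 days, and their operation passed the needle without tying the artery. I/R mice had the same gavage over 7 days, then 30 min of ischemia, with the left anterior descending (LAD) coronary artery tied, and 24 h of reperfusion. SBP mice were given SBP (labelled MUSKARDIA, the Shexiang Baoxin Pill) in that vehicle over 7 days and then the operation of the I/R mice. The operation was thus shared by all groups, the injury by I/R and SBP mice, and SBP without injury was not among the groups. The tissue was the part of the heart below the ligation, so a sample mixed injured and remote muscle in a proportion that the labels do not give.

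Type I interferons bind a receptor made of Ifnar1 and Ifnar2 and activate the kinases Jak1 and Tyk2. These phosphorylate Stat2, which enters with Irf9 into the factor ISGF3. ISGF3 binds a short DNA element, the interferon-stimulated response element (ISRE), in the promoters of the target genes, whose products sense foreign nucleic acid, degrade or bind viral RNA, stop translation and damp the signal again. In the infarcted heart, macrophages that take up dying cells are known to start this response through cytosolic DNA sensing and Irf3, and the response is also known to be present at a low level without injury.

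The ISRE core, searched on both strands as GAAANNGAAA, was looked for in promoter windows from RefSeq (GRCm38.p6, 250 bases before to 50 bases after the gene start). Windows were found for 30 of the 39 listed genes, and 16 of the 30 held the core. By window it was 17 of 36 (47.2%), against 3.44% of all 32851 promoter windows. The element of the interferon gamma response, TTCNNNGAA, was in 11.1% of the 36 windows and in 8.30% of all. A match is a description of letters and not of binding. Stretches around a match are printed here for 8 members that the results come back to, 5′ to 3′ on the strand of the gene, with the matched letters or their reverse complement in capitals. Ifit3 and Ifit3b are shown because their stretches are identical, and Ifi205 and Ifi207 because these relatives had their highest levels in different cell types.
Ifit1, chr19:34640765-34640814, + strand: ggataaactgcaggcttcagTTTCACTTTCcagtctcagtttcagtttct
Ifit3, chr19:34583387-34583436, + strand: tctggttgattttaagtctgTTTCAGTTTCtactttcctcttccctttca
Ifit3b, chr19:34607783-34607832, + strand: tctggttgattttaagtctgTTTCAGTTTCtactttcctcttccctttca
Isg15, chr4:156200861-156200910, - strand: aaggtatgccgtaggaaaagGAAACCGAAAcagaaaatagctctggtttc
Oas3, chr5:120777705-120777754, - strand: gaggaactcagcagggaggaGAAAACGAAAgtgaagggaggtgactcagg
Rsad2, chr12:26456543-26456592, - strand: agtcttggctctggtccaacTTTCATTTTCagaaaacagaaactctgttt
Ifi205, chr1:174031860-174031909, - strand: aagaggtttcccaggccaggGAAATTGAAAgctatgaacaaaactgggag
Ifi207, chr1:173741821-173741870, - strand: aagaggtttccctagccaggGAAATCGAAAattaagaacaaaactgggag

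The genes lie on 14 chromosomes, in part in clusters of related genes. The 4 Ifit genes are neighbours on chromosome 19 (GRCm38 chr19:34550694-34576419 for Ifit2 to chr19:34640871-34650009 for Ifit1), and the 5 Ifi200 genes lie on chromosome 1 (chr1:173566283-173599274 for Ifi213 to chr1:174011998-174031810 for Ifi205). Of the members called below, Oas3 held the core, as did Slfn5, and the windows of Ifi44 and Dtx3l did not. Usp18, Ifi204, Oas2, Zbp1, Dhx58, Parp14, Parp9, Mx1 and Mx2 had no window.

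The 9 samples held 49171 nuclei and between 10329520 and 18205985 unique molecular identifiers (UMIs, the count of captured transcripts) each, with a median of 1540 to 2031 UMIs per nucleus. After 85 marked doublets were removed, the nuclei that resembled a type by its markers were called cardiomyocytes (10526 nuclei), endothelial cells (13464), fibroblasts (14121) and myeloid cells (9565). The remaining named nuclei were 770 of T cells, 334 of B cells, 196 of pericytes and smooth muscle and 110 of Schwann cells. Interferon genes were kept out of the clustering, so cell types were not defined by the members. Sample pairs shared 4 to 14 barcodes. The I/R libraries differed from each other in their myeloid nuclei. I/R replicate 1 held 1476 injury macrophage-like nuclei, against 73 and 272 in I/R replicates 2 and 3. I/R replicate 2 held 58 resident macrophage-like nuclei, where the other 8 mice had at least 320 each before doublets were removed. It also held 361 of the 416 nuclei of a myeloid subcluster that no marker list named. The counts of members lower in SBP than in I/R mice are given with and without I/R replicate 2, a choice made after the data were seen. Most other values are given only with that mouse.

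Levels are CPM, the UMIs of a gene in a cell type of a mouse, scaled to a fixed library total and adjusted between mice by TMM, a trimmed mean of ratios. Pooled and summed levels and those of the injury macrophage-like and monocyte-like nuclei are plain CPM, without the TMM adjustment. In a sum over nuclei, more expressing nuclei and more RNA per expressing nucleus cannot be told apart. Levels were compared between types and mice within a gene, not between genes. Pooled over the mice, 22 of the 37 members had their highest level in myeloid cells, 12 in endothelial cells and 3 in fibroblasts. Cardiomyocytes had the lowest of the 4 levels for 36 members, and the other one, Parp9, was lowest in fibroblasts (52.8 CPM against 56.8 in cardiomyocytes). The groups of mice were pooled for this order, so it is a description and was not tested. The same order was not counted over all genes, so it is not read as a trait of the members.

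The summed level of the 37 members was lowest in cardiomyocytes and highest in myeloid cells of the 4 types in every mouse. In cardiomyocytes the sum was 257, 319 and 225 in the sham mice, 282, 445 and 229 in the I/R mice and 225, 251 and 183 in the SBP mice (plain CPM). In endothelial cells it was 2625, 2488 and 2614 in the sham mice, 2257, 2886 and 1968 in the I/R mice and 1909, 2037 and 2004 in the SBP mice. In fibroblasts it was 2547, 1943 and 2399.8 in the sham mice, 1887, 3323 and 2826 in the I/R mice and 2198, 2145 and 1851 in the SBP mice. I/R replicate 2 had the highest sum of the 9 mice in each of these types, and the fibroblast sums of the groups overlapped. A sum weighs each gene by its level. In fibroblasts Ifi205 and Ifi207 had the highest pooled levels of the members, 415 and 388 CPM. Both differed widely between mice of 1 group, as given below, so the fibroblast sums follow these genes in large part.

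In myeloid cells the sum was 4326, 3783 and 4477 in the sham mice, 3746, 5116 and 4022 in the I/R mice and 3235, 3607 and 3322 in the SBP mice. Here too I/R replicate 2 was highest, and the 3 SBP mice lay below every sham and I/R mouse. The sums of SBP mice lay below those of the sham mice in endothelial and myeloid cells without overlap and overlapped them in cardiomyocytes and fibroblasts. T cells, with 30 to 206 nuclei a mouse, had sums of 3679, 2235 and 3121 in sham, 3922, 4469.5 and 3069 in I/R and 2522, 3079 and 1834 in SBP mice, and these ranges overlapped.

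**Figure D1:**
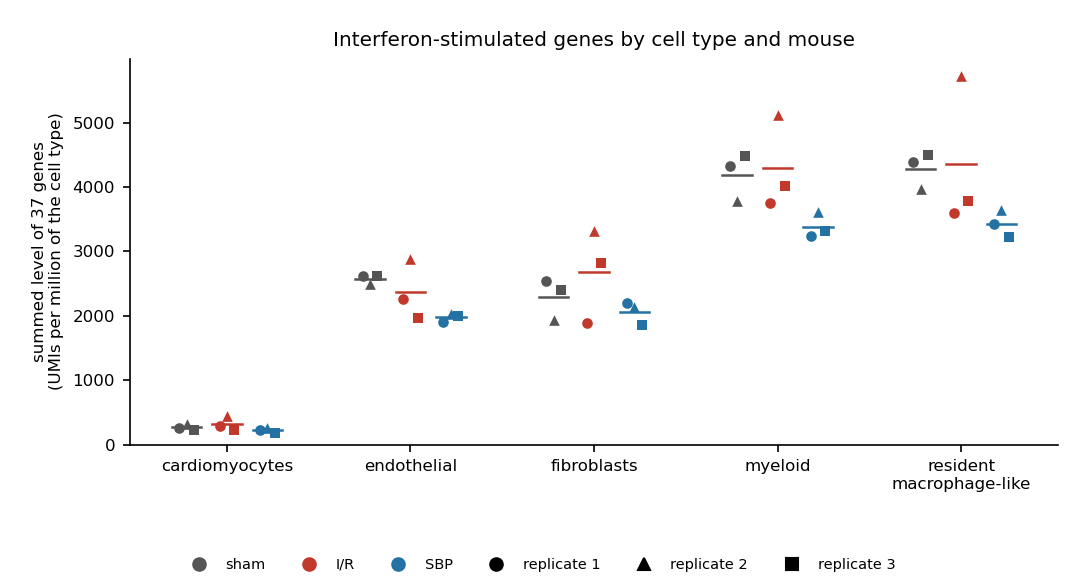
Summed level of the 37 interferon-stimulated genes in each mouse (y axis, plain CPM of the cell type, from 0) by cell type (x axis). Each point is 1 mouse, colour gives the group, shape the replicate number, and a bar the mean of 3 mice. The triangle of I/R replicate 2 is the highest point of each type shown, at 445 in cardiomyocytes and 5116 in myeloid cells.

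The transcription factors of the response were detected in each of the 4 large types. Stat2, the interferon-specific subunit of ISGF3, had 107, 125 and 133 CPM in the sham mice, 138, 218 and 149.6 CPM in the I/R mice and 156, 157 and 113 CPM in the SBP mice in myeloid cells, and 17.9, 18.03 and 12.98 CPM in the sham mice, 14.5, 45.9 and 16.3 CPM in the I/R mice and 18.5, 14.98 and 9.05 CPM in the SBP mice in cardiomyocytes. Its partner Irf9 had 54.4, 60.05 and 48.6 CPM in the sham mice, 53.4, 75.3 and 54.1 CPM in the I/R mice and 59.3, 64.3 and 49.6 CPM in the SBP mice in myeloid cells. Irf7, which amplifies interferon production once it is itself induced, had 19.2, 24.02 and 23.9 CPM in the sham mice, 30.7, 59.7 and 30.8 CPM in the I/R mice and 22.9, 40.9 and 17.7 CPM in the SBP mice in myeloid cells. For all 3 factors the highest myeloid value was that of I/R replicate 2. The ratio of the pooled myeloid level to the next type was 2.099 for Irf7, 1.52 for Irf9 and 1.39 for Stat2.

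Among the nucleic acid sensors, Ifih1 (MDA5), which binds long double-stranded RNA, had 76.9, 66.9 and 108 CPM in the sham mice, 87.6, 203 and 84.5 CPM in the I/R mice and 78.3, 78.2 and 75.2 CPM in the SBP mice in myeloid cells. I/R replicate 2 was the highest mouse, and the other I/R mice lay inside the sham range. The related helicase Dhx58 (LGP2) was 4.48 times as high in myeloid cells as in fibroblasts, its next type, with no overlap between the mice of both types. Ifi209 and Ifi213, of the Ifi200 family of DNA-binding proteins, were 20.2 and 13.8 times as high in myeloid as in endothelial cells, also without overlap, whereas Ifi205 was 14.99 times as high in fibroblasts as in myeloid cells. Ifi205 was the only one of the 5 Ifi200 genes with its highest level in fibroblasts.

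Of the antiviral effectors, the oligoadenylate synthetases Oas1a, Oas2 and Oas3 make the second messenger that activates RNase L. They and their relative Oasl1 had their highest levels in myeloid cells. Oas2 had 323, 257 and 295 CPM in the sham mice, 193, 298 and 268 CPM in the I/R mice and 179, 213 and 199 CPM in the SBP mice in myeloid cells and was 5.82 times as high there as in endothelial cells. Oas1a, Oas3 and Oasl1 had ratios of 6.48, 8.14 and 5.55 over the same second type, and none of the 4 overlapped between both types. Rsad2 (viperin), an inhibitor of viral replication, was highest in endothelial cells, with 47.5, 60.3 and 82.8 CPM in the sham mice, 68.6, 78.7 and 48.8 CPM in the I/R mice and 38.4, 42.98 and 61.1 CPM in the SBP mice. Ifi44 was 5.25 times as high in endothelial as in myeloid cells, the only one of the 12 endothelial-high members without overlap. Zbp1, a sensor of left-handed nucleic acid that can start necroptosis, had 22.4, 30.9 and 21.8 CPM in the sham mice, 23.98, 28.5 and 18.04 CPM in the I/R mice and 23.7, 19.1 and 19.9 CPM in the SBP mice in myeloid cells.

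Isg15, a ubiquitin-like protein that is attached to other proteins, was counted with 98 UMIs in all endothelial cells, and it had 7.27, 7.62 and 3.73 CPM in the sham mice, 6.32, 5.22 and 1.79 CPM in the I/R mice and 3.01, 2.26 and 3.26 CPM in the SBP mice there. Usp18, the protease that removes ISG15 and also blocks signalling at Ifnar2, had 27.2, 52.3 and 46.4 CPM in the sham mice, 25.02, 39.9 and 25.1 CPM in the I/R mice and 14.2, 22.7 and 22.7 CPM in the SBP mice in myeloid cells. Ifit3, a relative of Ifit1, had pooled levels of 13.2 CPM in endothelial cells, 12.7 in myeloid cells and 9.58 in fibroblasts. Endothelial Ifit3 exceeded myeloid Ifit3 in 3 of 9 mice. The printed stretches of Ifit3 and Ifit3b are identical, and reads of these near copies may have been divided between them.

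Of the ligases, Rnf213, a giant ubiquitin ligase that coats intracellular bacteria, had 288, 259.9 and 331 CPM in the sham mice, 351, 529 and 323 CPM in the I/R mice and 298, 364 and 316 CPM in the SBP mice in myeloid cells. Parp14, an ADP-ribosyltransferase of the macrophage response, had 215, 188 and 271 CPM in the sham mice, 205, 323 and 187 CPM in the I/R mice and 181, 212 and 179 CPM in the SBP mice there. In both, I/R replicate 2 was the highest mouse and the other I/R mice overlapped the SBP mice. Parp9 and Dtx3l form a complex, and their genes overlap on opposite strands (GRCm38 chr16:35926511-35939151 for Dtx3l and chr16:35938470-35972605 for Parp9). The shared stretch is at the start of both genes, whereas the kit reads 3′ ends. Reads in it can be credited to the wrong gene if strand was not used in counting.

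The effect of ischemia-reperfusion was read from I/R against sham mice. Few members were called. Fibroblasts and myeloid cells had 2 called members each, 1 up and 1 down, and cardiomyocytes and endothelial cells had none. Called means that the p adjusted by Benjamini-Hochberg over all genes tested did not exceed 0.05, with an absolute log2 fold change over 0.25, in limma fitted to the 9 mice of a type on log2(CPM + 1), a scale that understates the change of low genes.

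In fibroblasts, Ifi44, a cytosolic protein of the interferon response, had 1.35, 1.09 and 1.04 CPM in the sham mice, 4.99, 11.01 and 4.77 CPM in the I/R mice and 1.97, 2.16 and 2.84 CPM in the SBP mice. The 3 I/R mice lay above every sham mouse. The change in I/R against sham was called, with a log2 fold change of 1.79 ± 0.35 (SE) and an adjusted p of 0.00625 by limma. Ifi44 passed the filter on low values with 3 I/R mice and 1 SBP mouse, and would not have passed without the I/R mice, in which it is high. With no filter, so that no gene was chosen by its values, it was also called, with the same log2 fold change of 1.79 and an adjusted p of 0.00486 by limma. Slfn5, of the Schlafen family of growth regulators, had 210.0, 185 and 238 CPM in the sham mice, 98.8, 90.9 and 104 CPM in the I/R mice and 69.1, 108 and 90.9 CPM in the SBP mice. The sham mice lay above all 6 injured mice. It fell in I/R against sham by 2.14-fold, with a log2 fold change of -1.09 ± 0.17 (SE) and an adjusted p of 0.00196 by limma.

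Zbp1 came next in fibroblasts and was not called, but it was called with a replicate block, without I/R replicate 1 and without SBP replicate 3. It had 4.05, 4.35 and 2.78 CPM in the sham mice, 7.36, 18.6 and 8.103 CPM in the I/R mice and 6.46, 8.64 and 2.84 CPM in the SBP mice, with a log2 fold change of 1.29 ± 0.40 (SE) and an adjusted p of 0.0594 by limma in I/R against sham. The 2 called members were 2 of the 35 tested in fibroblasts, where 11.6% of the 13074 genes tested were called. Summed markers of endothelial cells, in which Ifi44 and Slfn5 had their highest levels, lay at 323 to 437 CPM in fibroblasts of sham mice, 224 to 328 in I/R mice and 211 to 478 in SBP mice, with UMIs for all 10 markers. Those of myeloid cells, in which Zbp1 was highest, lay at 155 to 178, 298 to 455 and 199 to 256, with UMIs for all 12 markers. The part of either in these changes was not tested.

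In myeloid cells, Oas3 had 4.804, 7.72 and 7.98 CPM in the sham mice, 15.6, 30.2 and 14.96 CPM in the I/R mice and 4.74, 14.3 and 9.93 CPM in the SBP mice. All 3 I/R mice lay above all sham mice, and I/R replicate 2 was the highest of the 9 mice. Oas3 rose in I/R against sham, with a log2 fold change of 1.40 ± 0.40 (SE) and an adjusted p of 0.0300 by limma. The call was lost without I/R replicate 2 (log2 fold change 1.08, adjusted p = 0.131 by limma) and without each of the sham mice (adjusted p = 0.0975, 0.0552 and 0.0559), with adjusted p from 0.0155 to 0.131 over its 21 alternatives.

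Dtx3l, a ubiquitin ligase that acts with Parp9, had 54.4, 52.3 and 59.5 CPM in the sham mice, 36.3, 32.3 and 37.4 CPM in the I/R mice and 22.1, 26.7 and 32.6 CPM in the SBP mice in myeloid cells. The sham mice lay above all 6 injured mice. It fell in I/R against sham, with a log2 fold change of -0.64 ± 0.19 (SE) and an adjusted p of 0.0394 by limma, and the call was lost in 9 of 21 alternatives, among them those without each sham or I/R mouse in turn and without SBP replicate 2. The overlapping gene Parp9 had 136, 132 and 166 CPM in the sham mice, 129, 133 and 134 CPM in the I/R mice and 94.9, 136 and 127 CPM in the SBP mice, and its groups overlapped. The 2 called members were 2 of 33 tested, where 17.8% of 10908 genes were called. Myeloid cells of sham mice were mostly resident macrophage-like and those of injured mice were not, so a change over all myeloid cells mixes changes within a subtype with changes in their proportions.

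**Figure D2:**
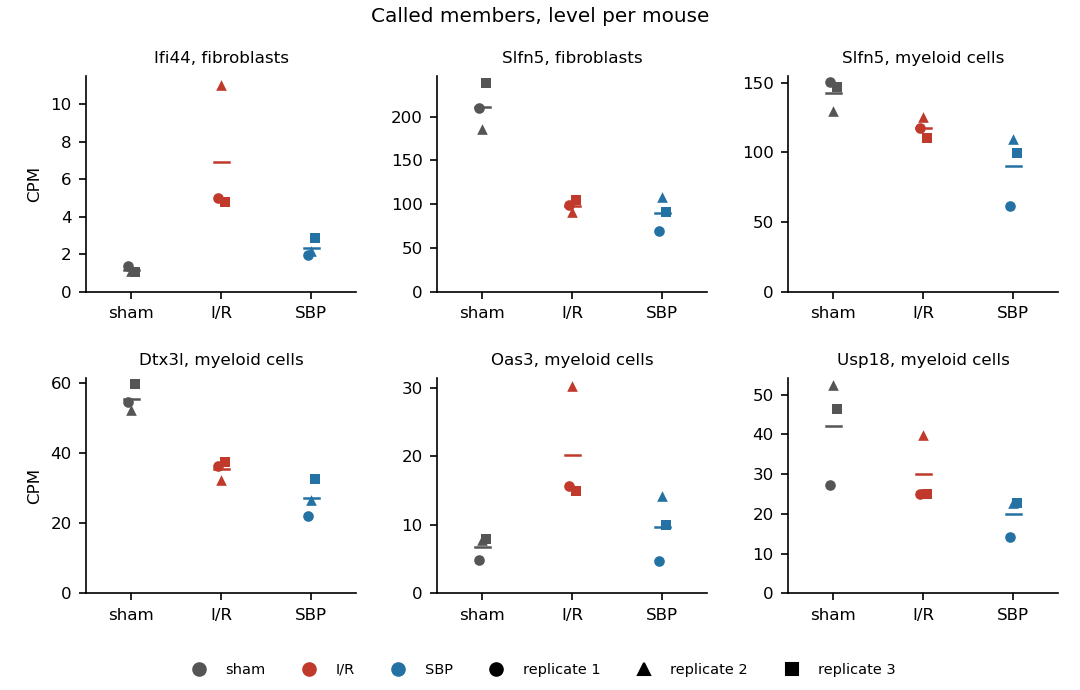
Level of each called member per mouse (y axis, CPM, from 0, a separate scale in each panel) by group (x axis) in the cell type where it was called. Points are mice, shapes are replicate numbers and bars are means of 3 mice. Ifi44 and Oas3 are highest in I/R mice, and Slfn5, Dtx3l and Usp18 are highest in sham mice.

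In cardiomyocytes 25 members were tested and 0 were called in I/R against sham by limma, with 2 beside Ifit1 at an unadjusted p under 0.05 (1822 of all 12899 genes tested), and 0.806% of all genes were called. Ifit1, which holds foreign RNA caps, had 1.51, 1.15 and 0.805 CPM in the sham mice, 2.01, 9.72 and 4.5003 CPM in the I/R mice and 0.761, 0.440 and 0.754 CPM in the SBP mice. Ifi207 had 8.295, 4.18 and 5.84 CPM in the sham mice, 9.88, 10.5 and 12.8 CPM in the I/R mice and 9.33, 7.34 and 4.52 CPM in the SBP mice (log2 fold change 0.80 ± 0.28 (SE)), and Ifi204 had 2.83, 1.87 and 2.72 CPM in the sham mice, 3.71, 7.43 and 4.99 CPM in the I/R mice and 2.47, 4.85 and 1.51 CPM in the SBP mice (log2 fold change 0.85 ± 0.34 (SE)). I/R and sham mice did not overlap for Ifi207 and Ifi204. Ifit1 was the 1 of the 25 members that passed the filter on low values through the I/R mice alone, so that higher values in I/R mice were built in, and its values are given as a description with no test. In these cardiomyocyte sums the myeloid markers lay at 60.9 to 72.05 CPM in sham mice and 106 to 173 in I/R mice, and the fibroblast markers at 264 to 292 and 385 to 478, with UMIs for all 12 and all 9 markers. Their part in Ifi204 and Ifi207, whose levels were highest in myeloid cells and fibroblasts, was not tested.

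In endothelial cells 35 members were tested and 0 were called by limma, with 5 at an unadjusted p under 0.05 (2133 of all 12223 genes tested), 3 of them higher and 2 lower, and 3.17% of all genes were called. Ifi209, among those higher, would not have passed the filter without the I/R mice, so its rise is not read here. Cmpk2, a mitochondrial nucleotide kinase whose gene neighbours Rsad2, had 20.7, 17.8 and 23.6 CPM in the sham mice, 11.3, 12.6 and 8.97 CPM in the I/R mice and 9.04, 12.2 and 14.3 CPM in the SBP mice. The I/R mice lay below the sham mice, with a log2 fold change of -0.86 ± 0.23 (SE) and an adjusted p of 0.0697 by limma. Ifi207 (0.90 ± 0.30 (SE)) and Ifi204 (0.76 ± 0.28 (SE)) had positive log2 fold changes without overlap between the groups. Both genes had higher pooled levels in fibroblasts (388 and 138 CPM) and myeloid cells (469 and 251) than in endothelial cells (36.4 and 22.8). In the endothelial sums the myeloid markers lay at 342 to 419 CPM in sham and 611 to 845 in I/R mice, and the fibroblast markers at 919.5 to 1172 and 1278 to 1849, both without overlap, and their part was not tested. By role, the sensors had a median log2 fold change of 0.58 in endothelial cells and 0.54 in fibroblasts, both over 8 tested genes, and the 5 factors and nuclear regulators had -0.29 and -0.18. In cardiomyocytes and myeloid cells the sensors had 0.39 and 0.19, over 6 and 8 genes, and the factors and regulators 0.20 and 0.15. These medians cover genes that passed the filter, of which Ifi209 in endothelial cells and fibroblasts and Ifi213 and Irf7 in cardiomyocytes did so only with the I/R mice. In resident macrophage-like nuclei it was -0.06 for the sensors and 0.07 for the factors and regulators. With voom weights limma also called 0 members in cardiomyocytes and endothelial cells.

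The effect of SBP in the injured heart was read from SBP against I/R mice. No member was called by limma in cardiomyocytes, endothelial cells, fibroblasts, myeloid cells or resident macrophage-like, injury macrophage-like or monocyte-like nuclei, and 0.0% of all genes were called in each. The other cell types and myeloid subtypes were not fitted. Most members tested lay lower in SBP than in I/R mice, and the median difference was smaller without I/R replicate 2 in the 4 large types. In cardiomyocytes 23 of 24 members tested, with Ifit1 left out for the filter as above, had a log2 fold change below 0, against 50.1% of all genes, and the median was -0.39. In endothelial cells it was 33 of 35 against 48.7% (median -0.28), in fibroblasts 31 of 35 against 47.5% (median -0.19) and in myeloid cells 33 of 33 against 55.4% (median -0.37). Members passed the filter on low values only in part, and 3 in cardiomyocytes, 4 in endothelial cells and 2 in fibroblasts would not have passed without the I/R mice. With no filter, myeloid cells had 36 of 37 members lower (54.8% of all genes), cardiomyocytes 34 (50.6%), endothelial cells 34 (47.8%) and fibroblasts 33 (48.2%), and genes of 1 mouse are not independent of each other.

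I/R replicate 2 was the highest of the 9 mice for 16 of the 24 members in cardiomyocytes, 18 of 35 in endothelial cells, 27 of 35 in fibroblasts and 18 of 33 in myeloid cells, where 12.4%, 13.7%, 13.02% and 18.4% of all genes tested had it as the highest mouse. Without it, members lower in SBP than in I/R mice were 19 of 24 in cardiomyocytes (52.5% of all genes), 23 of 34 in endothelial cells (51.0%), 15 of 35 in fibroblasts (48.7%) and 28 of 33 in myeloid cells (53.7%). The medians were then -0.19, -0.11, 0.03 and -0.19. The median in fibroblasts changed sign without this mouse.

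**Figure D3:**
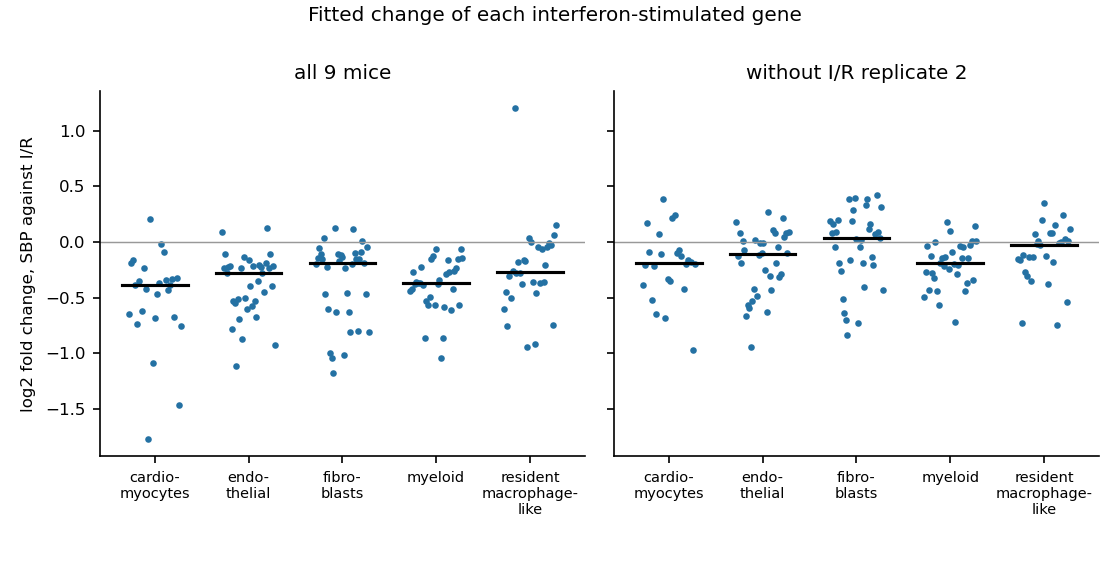
Fitted log2 fold change of SBP against I/R (y axis) for each interferon-stimulated gene tested (points), by cell type (x axis), with all 9 mice (left) and without I/R replicate 2 (right). Black bars are medians and the grey line is 0. With all mice the median is -0.37 in myeloid cells and -0.19 in fibroblasts, and without that mouse -0.19 and 0.03.

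In cardiomyocytes 5 members beside Ifit1 reached an unadjusted p under 0.05 in SBP against I/R, all lower (277 of all 12899 genes). Usp18 had 4.15, 2.45 and 1.71 CPM in the sham mice, 2.01, 8.195 and 2.68 CPM in the I/R mice and 0.761, 1.76 and 0 CPM in the SBP mice and a log2 fold change of -1.46 ± 0.47 (SE). Irf7 had 2.07, 1.298 and 1.31 CPM in the sham mice, 2.47, 6.67 and 2.19 CPM in the I/R mice and 1.14, 2.496 and 0.188 CPM in the SBP mice, and it would not have passed the filter without the I/R mice. For Irf7 and Usp18 I/R replicate 2 was the highest mouse, and SBP replicate 3 had no Usp18 UMI in cardiomyocytes.

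In endothelial cells 5 members reached that unadjusted p, all lower (629 of all 12223 genes). Ifi204 had 14.5, 21.3 and 18.6 CPM in the sham mice, 29.3, 36.96 and 27.6 CPM in the I/R mice and 16.2, 28.5 and 11.8 CPM in the SBP mice, with a log2 fold change of -0.78 ± 0.28 (SE) and an adjusted p of 0.960 by limma. Ifit1 had a log2 fold change of -0.87 ± 0.33 (SE). Both overlapped between SBP and I/R mice. Ifi209 and Zbp1, also under that p, would not have passed the filter without the I/R mice.

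The myeloid markers were lower in SBP than in I/R mice in these sums as well, without overlap and with UMIs for all 12. They lay at 611 to 845 CPM in I/R and 402 to 549 in SBP mice in endothelial cells, at 106 to 173 and 69.2 to 104 in cardiomyocytes and at 298 to 455 and 199 to 256 in fibroblasts. Ifi204, Ifi209 and Ifi213 had their highest levels in myeloid cells. The part of these markers in the differences of the 3 types was not tested.

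In fibroblasts 4 members reached it, all lower (461 of all 13074 genes). Ifi44 and Ifi209 were among them and would not have passed the filter without the I/R mice, so their differences are not read here. For this contrast the values of Ifi44 given above are a description only. Isg15 had 5.397, 6.53 and 3.48 CPM in the sham mice, 4.75, 6.21 and 1.67 CPM in the I/R mice and 1.97, 0.960 and 1.29 CPM in the SBP mice and a log2 fold change of -1.02 ± 0.40 (SE). It passed the filter with 3 sham, 2 I/R and 0 SBP mice and would not have passed without the sham mice, so its difference is not read here either. Ifi213 had 3.15, 2.902 and 2.09 CPM in the sham mice, 5.22, 8.76 and 2.62 CPM in the I/R mice and 1.404, 3.601 and 1.29 CPM in the SBP mice and a log2 fold change of -1.04 ± 0.41 (SE). Isg15 and Ifi213 overlapped between SBP and I/R mice, in each through I/R replicate 3.

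In myeloid cells 3 members reached it, all lower (418 of all 10908 genes). Ifi209 had 72.1, 66.9 and 87.8 CPM in the sham mice, 91.1, 178 and 106 CPM in the I/R mice and 41.9, 86.7 and 77.3 CPM in the SBP mice, with a log2 fold change of -0.86 ± 0.29 (SE) and an adjusted p of 1.000 by limma. Oas3 had a log2 fold change of -1.04 ± 0.40 (SE). Herc6, the main ligase that attaches ISG15 in the mouse, had 141, 115 and 128 CPM in the sham mice, 135, 137 and 96.8 CPM in the I/R mice and 91.7, 90.7 and 98.6 CPM in the SBP mice and a log2 fold change of -0.37 ± 0.17 (SE). SBP and I/R mice did not overlap for Ifi209 and Oas3 and overlapped for Herc6. With voom weights limma called 0 members in each of the 4 types as well.

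SBP mice were also set against sham mice, a comparison of treated, injured hearts with vehicle-treated, uninjured ones that shares its mice with both comparisons above. The called members were all lower in SBP mice. In fibroblasts it was 1 of 35 tested, where 6.07% of 13074 genes were called, and in myeloid cells 3 of 33, where 12.7% of 10908 genes were called. In cardiomyocytes 0 of 25 members were called by limma (0.124% of 12899 genes) and 4 had an unadjusted p under 0.05 (1731 of all genes). In endothelial cells 0 of 35 were called (2.0% of 12223 genes) and 6 had an unadjusted p under 0.05 (1880 of all genes), each of them lower.

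The called fibroblast gene was again Slfn5, with the values given above. Its log2 fold change was -1.25 ± 0.17 (SE) and its adjusted p 0.00149 by limma, against -1.09 in I/R against the same sham mice. In myeloid cells Slfn5 had 151, 129.5 and 147 CPM in the sham mice, 117, 126 and 110.4 CPM in the I/R mice and 61.7, 109 and 99.3 CPM in the SBP mice. It fell in SBP against sham mice, with a log2 fold change of -0.69 ± 0.20 (SE) and an adjusted p of 0.0383 by limma, and the call was lost in 9 of 21 alternatives, among them the one with a replicate block (adjusted p = 0.0515). Without each sham mouse and without SBP replicates 1 and 3 it was lost too. The groups of myeloid Slfn5 followed an order from sham to I/R to SBP without overlap.

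Dtx3l in myeloid cells fell in SBP against sham mice, with a log2 fold change of -1.02 ± 0.19 (SE) and an adjusted p of 0.00516 by limma, and it was called in 20 of 21 alternatives. Usp18 in myeloid cells fell as well, with a log2 fold change of -1.02 ± 0.29 (SE) and an adjusted p of 0.0383. For both genes the SBP mice lay below all sham mice. The call of Usp18 was lost in 8 of 21 alternatives, including those without sham replicates 2 and 3 and without each SBP mouse, and over them its adjusted p ran from 0.0164 to 0.141.

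Endothelial Ifit1 lay at the threshold. It had 28.5, 18.1 and 24.4 CPM in the sham mice, 13.1, 27.4 and 10.05 CPM in the I/R mice and 6.03, 8.14 and 10.2 CPM in the SBP mice, and the SBP mice lay below the sham mice without overlap. Its log2 fold change in SBP against sham mice was -1.44 ± 0.33 (SE), a fold of 2.71, with an adjusted p of 0.0506 by limma, and 7 of its alternatives called it, including those without I/R replicate 2 and without I/R replicate 3. Endothelial Dtx3l had 45.8, 28.6 and 34.8 CPM in the sham mice, 13.997, 24.4 and 26.6 CPM in the I/R mice and 11.7, 19.001 and 22.005 CPM in the SBP mice and a log2 fold change of -1.03 ± 0.29 (SE) with an adjusted p of 0.101. Endothelial Cmpk2 had a log2 fold change of -0.77 ± 0.23 (SE), and its SBP and I/R mice both lay below the sham mice.

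In cardiomyocytes, Ifit2, an IFIT protein that can promote apoptosis, had 4.15, 4.76 and 4.23 CPM in the sham mice, 4.01, 10.7 and 11.9 CPM in the I/R mice and 14.7, 8.81 and 6.596 CPM in the SBP mice. Its log2 fold change in SBP against sham mice was 0.97 ± 0.36 (SE) with an adjusted p of 0.281 by limma, and all SBP mice lay above all sham mice. Fibroblasts, in which Ifit2 had its highest level (30.03 CPM pooled, against 7.54 in cardiomyocytes), had their markers in the cardiomyocyte sums at 264 to 292 CPM in sham and 336 to 386 in SBP mice, also without overlap, and their part was not tested. Sp100, a protein of nuclear bodies, had 16.02, 14.9 and 11.5 CPM in the sham mice, 13.3, 14.3 and 8.39 CPM in the I/R mice and 11.4, 8.22 and 7.92 CPM in the SBP mice and a log2 fold change of -0.57 ± 0.24 (SE). Slfn5 had 12.6, 18.5 and 13.2 CPM in the sham mice, 15.4, 13.2 and 12.8 CPM in the I/R mice and 8.76, 11.5 and 10.7 CPM in the SBP mice and a log2 fold change of -0.47 ± 0.20 (SE), and SBP mice lay below sham mice for both. Sp100 and Slfn5 were highest in endothelial cells, at 422 and 275 CPM pooled, against 11.6 and 13.1 in cardiomyocytes. Endothelial markers in the cardiomyocyte sums lay at 128 to 208 CPM in sham and 100.4 to 194 in SBP mice, which overlapped. Their part was not tested. With voom weights limma called 0 members in cardiomyocytes and in endothelial cells.

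Several Ifi200 genes differed widely between mice of 1 group. In fibroblasts, Ifi205 (described although its values were seen first) had 522, 119 and 599 CPM in the sham mice, 278, 410.1 and 687 CPM in the I/R mice and 454, 361 and 299 CPM in the SBP mice. Ifi207 had 399, 131 and 342 CPM in the sham mice, 226, 525 and 826 CPM in the I/R mice and 464, 234 and 257 CPM in the SBP mice, and Ifi204 had 129.5, 37.7 and 113 CPM in the sham mice, 84.1, 251 and 223 CPM in the I/R mice and 152, 120.5 and 95.8 CPM in the SBP mice. Sham replicate 2 was the lowest of the 9 mice for all 3 genes, and I/R replicate 3 was the highest for Ifi205 and Ifi207. The same pair of mice was lowest and highest for Ifi205 and Ifi207 in endothelial cells, where Ifi205 had 27.9, 5.72 and 20.3 CPM in the sham mice, 15.4, 24.4 and 43.1 CPM in the I/R mice and 23.7, 12.2 and 17.5 CPM in the SBP mice. Ifi204 and Ifi207 are neighbours on chromosome 1 and Ifi205 lies further along the chromosome, and the 3 are related genes, so that reads may be divided between them. None of the 3 was called in any contrast in any of the 4 types.

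**Figure D4:**
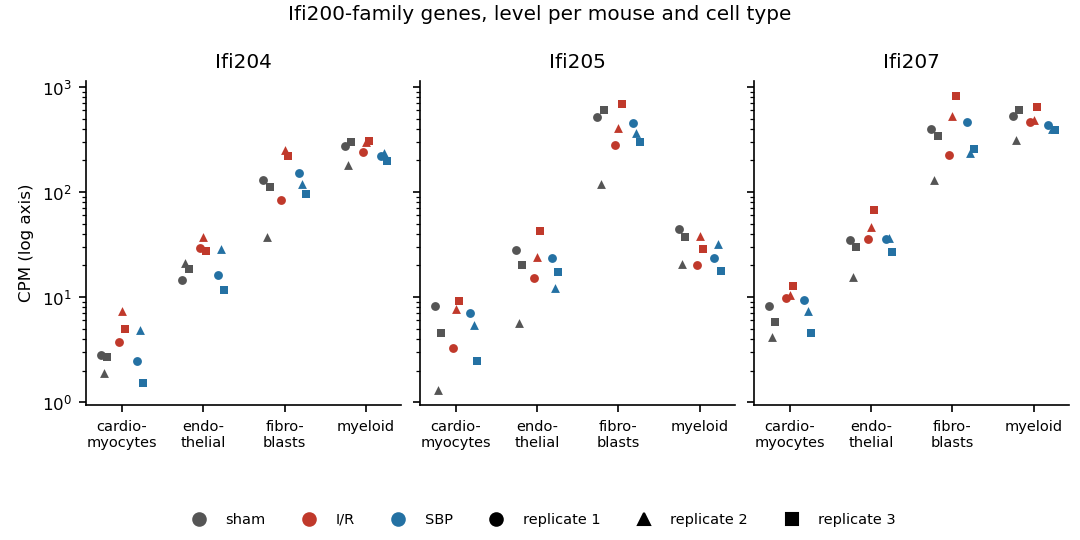
Levels of Ifi204, Ifi205 and Ifi207 in each mouse (y axis, CPM on a log axis) by cell type (x axis). Colour gives the group and shape the replicate number. In fibroblasts Ifi205 spans 119 CPM in sham replicate 2 to 687 CPM in I/R replicate 3, and the 3 groups overlap.

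Myeloid subtypes were clustered without the members. Resident macrophage-like nuclei (3645, with markers such as Cd163, Mrc1 and F13a1), injury macrophage-like nuclei (2754, Gpnmb and Spp1), monocyte-like nuclei (1600, Ccr2 and Vcan), cycling-like nuclei (575), dendritic-like nuclei (383) and neutrophil-like nuclei (192) carried names, and 416 nuclei did not. Only the resident macrophage-like nuclei had 20 or more in all 9 mice. There were 4 to 9 monocyte-like and at most 2 injury macrophage-like nuclei in a sham mouse before doublets were removed, so those subtypes were compared between injured mice only, a choice made after the values were seen.

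In resident macrophage-like nuclei 30 members were tested. In I/R against sham 0 were called by limma (0.491% of 8752 genes), and 2 had an unadjusted p under 0.05 (1196 of all genes). Slfn5 had 163, 149.8 and 157 CPM in the sham mice, 94.8, 122 and 69.2 CPM in the I/R mice and 55.8, 93.8 and 99.4 CPM in the SBP mice, with a log2 fold change of -0.75 ± 0.26 (SE) and an adjusted p of 0.235 by limma. The sham mice lay above all injured mice. Xaf1, a proapoptotic partner of XIAP, had a log2 fold change of -0.48 ± 0.21 (SE), and Dtx3l one of -0.60 ± 0.28 (SE).

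In SBP against I/R 0 of 30 were called (0.0% of all genes), 25 lay lower (43.5% of all genes) with a median of -0.27, and 2 had an unadjusted p under 0.05 (513 of all genes). Without I/R replicate 2, whose resident macrophage-like sum rests on 58 nuclei, 17 of 29 lay lower (51.4% of all genes) with a median of -0.03. Dtx3l had 59.5, 56.8 and 62.2 CPM in the sham mice, 32.7, 40.5 and 44.8 CPM in the I/R mice and 15.7, 26.2 and 28.4 CPM in the SBP mice, with a log2 fold change of -0.75 ± 0.28 (SE) and an adjusted p of 0.751 by limma. Herc6 had one of -0.50 ± 0.23 (SE) and Usp18 one of -0.74 ± 0.37 (SE). Among these 3, only Dtx3l did not overlap between SBP and I/R mice.

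In SBP against sham 0 of 30 were called (0.606% of 8752 genes), 4 had an unadjusted p under 0.05 (867 of all genes) and 27 lay lower (4467 of all genes). Ifit2 and Ifit3 would not have passed the filter without the sham mice. Dtx3l had a log2 fold change of -1.35 ± 0.28 (SE) with an adjusted p of 0.0548 by limma. Slfn5 had one of -0.95 ± 0.26 (SE) with an adjusted p of 0.146. Usp18 had 25.8, 57.8 and 46.9 CPM in the sham mice, 27.8, 40.5 and 24.4 CPM in the I/R mice and 17.4, 24.8 and 12.6 CPM in the SBP mice and a log2 fold change of -1.18 ± 0.37 (SE). For these 3 genes the sham mice lay above the SBP mice.

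Injury macrophage-like nuclei numbered from 73 to 1478 in an I/R mouse and 92 to 689 in an SBP mouse before doublets were removed. They had 27 members tested in SBP against I/R, 6 of which would not have passed the filter without the I/R mice. Of the 6, Rsad2, Zbp1 and Dtx3l would not have passed without the SBP mice either. For Ifi213, Irf7 and Usp18 the filter thus favoured lower values in SBP mice. The counts that follow include them, and no count without the filter was made for these nuclei. Of the 27 members 0 were called by limma (0.0%), 8 had an unadjusted p under 0.05 (296 of all 7481 genes), all lower, and 25 lay lower (51.6% of all genes) with a median of -0.50. The summed member level, here without TMM factors, was 4054, 4584 and 4226 CPM in I/R mice and 2422, 3149 and 3568 in SBP mice, and these did not overlap. Without I/R replicate 2, 27 of 30 lay lower (55.4% of all genes) with a median of -0.57.

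Ifi209 had 94.5, 125 and 133 CPM in I/R and 64.7, 54.9 and 68.3 in SBP mice, with a log2 fold change of -0.88 ± 0.24 (SE) and an adjusted p of 0.994 by limma. Oas2 had 198, 239 and 219.7 and 75.5, 144 and 149, with a log2 fold change of -0.89 ± 0.28 (SE). Ifih1 had 88.1, 139.7 and 85.7 and 70.1, 58.7 and 47.5, with a log2 fold change of -0.80 ± 0.27 (SE). In each of the 3 genes all SBP mice lay below all I/R mice. SBP replicate 1 had the lowest member sum and the fewest of these nuclei among the SBP mice.

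In monocyte-like nuclei 22 members were tested in SBP against I/R, 5 of which would not have passed the filter without 1 of the groups. Ifih1, Irf7 and Oas1a needed the I/R mice, Dhx58 the SBP mice and Xaf1 both. The counts that follow include them, and no count without the filter was made for these nuclei. Of the 22 members 0 were called by limma (0.0%), 1 had an unadjusted p under 0.05 (165 of all 4985 genes), and 16 lay lower (51.2% of all genes) with a median of -0.16. Without I/R replicate 2, which gave 758 of the nuclei before doublets were removed, 11 of 22 lay lower (46.7%) with a median of -0.001. Ifi209 was the member under that p, with 187, 216 and 232 CPM in I/R and 65.1, 157 and 133 in SBP mice and a log2 fold change of -0.93 ± 0.32 (SE). Ifi204 (-0.41 ± 0.24 (SE)) and Ifi207 (-0.31 ± 0.20 (SE)) came next, and Ifi207 did not overlap. The summed level was 3869, 4953 and 4542 in I/R and 3674, 5042 and 3185 in SBP mice, which overlapped.

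Nuclei with UMIs of several members were counted. A nucleus was positive when 2 or more of 18 core members had a UMI after it was thinned to 1000 UMIs, and shallower nuclei were left out. In myeloid cells the share of positive nuclei was 14.6, 14.1 and 11.9% in the sham mice, 11.6, 26.2 and 12.9% in the I/R mice and 11.4, 12.1 and 8.85% in the SBP mice. In endothelial cells it was 5.66, 5.51 and 4.23%, 6.15, 9.89 and 3.23% and 2.41, 3.81 and 4.18%. In fibroblasts it was 2.57, 3.34 and 2.19%, 3.06, 8.82 and 1.65% and 1.65, 2.76 and 2.199%. I/R replicate 2 had the highest share in each, at 352 of 1342 myeloid nuclei, with an exact Clopper-Pearson 95% interval of 23.9% to 28.7% that covers counting error only.

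In cardiomyocytes, at median depths of 3174 to 5724 UMIs, 3 of 4238 sham nuclei and 9 of 3256 I/R nuclei were positive, and 8 of the 9 were from I/R replicate 2. In SBP mice it was 0 of 3028 nuclei, which allows a share of up to 0.0991% for nuclei pooled over the mice and thinned, counting error only. No cell type here is known to lack these genes, so the share that free RNA alone gives was not measured, and a positive nucleus is one with UMIs, not one shown to express the members. The cardiomyocyte markers lay at 7573 to 8952 CPM in myeloid sums of sham mice, 2021 to 3435 in I/R and 2340.1 to 2965 in SBP mice, and the part of such carry-over in the shares was not tested. With all their UMIs 32 of 3030 SBP cardiomyocyte nuclei were positive, so the 0 sets no limit on nuclei that express these genes. The shares in the other types, at median depths of 1088 to 2106 UMIs, lay above those in cardiomyocytes in every mouse. Left out as too shallow were 1564 of 4801 endothelial nuclei in sham, 1023 of 4234 in I/R and 1037 of 4429 in SBP mice, but at most 133 myeloid nuclei in a group. Without thinning the shares ran from 20.9% to 23.3% in myeloid cells of sham mice, from 22.3% to 47.4% in I/R mice and from 18.6% to 25.995% in SBP mice.

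None of the 12 differences between groups passed the exact permutation test, whose smallest two-sided p with 3 against 3 mice is 0.1, and adjustment over the 12 could not lower it. That p of 0.1 was reached in endothelial cells of SBP against sham mice, with means of 3.47% ± 0.94 and 5.13% ± 0.78 (SD, n = 3 each). In myeloid cells SBP mice had 10.8% ± 1.70 and I/R mice 16.9% ± 8.10 (SD, n = 3 each), with an exact permutation p of 0.2. The SD of the I/R mice is that of 1 high mouse against 2 that lie inside the range of the sham or SBP mice. Without I/R replicate 2, I/R minus sham changed sign in each of the 4 types.

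**Figure D5:**
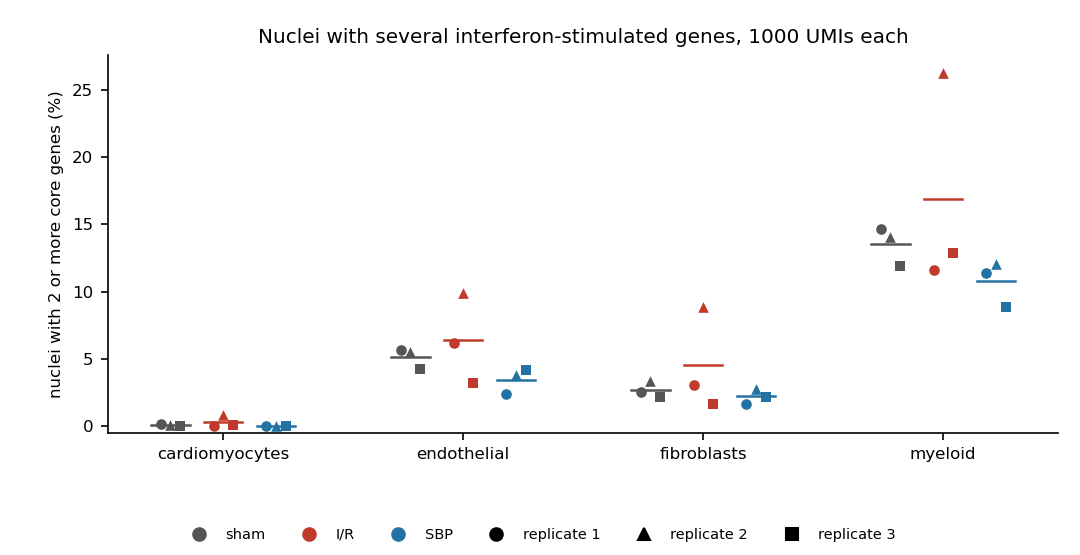
Share of nuclei in which 2 or more of 18 core interferon-stimulated genes had a UMI after thinning to 1000 UMIs (y axis, percent) by cell type (x axis). Points are mice, shapes are replicate numbers and bars are means of 3 mice. I/R replicate 2 reaches 26.2% of myeloid nuclei, while the other 8 mice lie between 8.85% and 14.6%.

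By subtype, with nuclei of the mice of a group pooled and therefore without a test, 216 of 989 monocyte-like nuclei (21.8%), 243 of 1817 injury macrophage-like nuclei (13.4%) and 108 of 904 resident macrophage-like nuclei (11.9%) of I/R mice were positive. In SBP mice it was 15.3%, 10.1% and 10.7%, and in the resident macrophage-like nuclei of sham mice 13.8%. The mice differ in their share of each subtype, so these shares do not order the subtypes. I/R replicate 2 gave 757 of the monocyte-like nuclei of I/R mice, and I/R replicate 1 gave 1476 of the injury macrophage-like ones. Neutrophil-like nuclei, most of which were left out as too shallow, had 18 of 48 positive (37.5%) in I/R mice. The unnamed subcluster, nearly all from I/R replicate 2, had 106 positive nuclei (27.0%) in I/R mice.

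Upstream of the members, few interferon transcripts were detected at this depth. Of 21 interferon ligand genes listed, 4 had rows, with 7 UMIs of Ifng in all 9 samples, 6 of them in sham replicate 3, and 2 UMIs each of Ifnab, Ifnk and Ifnz. Ifnb1 was not analysed here. The receptor chains Ifnar1 and Ifnar2 were detected and not called in any contrast fitted. Myeloid Ifnar1 had 171, 153 and 219 CPM in the sham mice, 156, 184 and 146 CPM in the I/R mice and 115, 169.5 and 174 CPM in the SBP mice. Myeloid Ifnar2 had 195, 166 and 199.6 CPM in the sham mice, 275, 205 and 195 CPM in the I/R mice and 155, 211 and 186 CPM in the SBP mice. The groups overlapped for both in myeloid cells. In resident macrophage-like nuclei the sham mice lay above all injured mice for both. There Ifnar1 had 189, 162 and 233 CPM in the sham mice, 134, 129.7 and 97.7 CPM in the I/R mice and 95.9, 121 and 140.4 CPM in the SBP mice, with a log2 fold change in I/R against sham of -0.68 ± 0.21 (SE) (adjusted p = 0.191 by limma). Ifnar2 had 208, 172 and 205 CPM in the sham mice, 142, 138 and 155 CPM in the I/R mice and 109.9, 141 and 161 CPM in the SBP mice, with one of -0.42 ± 0.18 (SE) (adjusted p = 0.339).

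The wider interferon pathway was described with 7 further lists, 153 genes with rows, which were drawn up with earlier results of these data known. In I/R against sham, 4 of 119 tested genes of these lists were called in cardiomyocytes, all up. In endothelial cells it was 4 up and 1 down of 132, in fibroblasts 10 up and 6 down of 129, and in myeloid cells 16 up and 12 down of 133. In SBP against sham it was 0 of 119, 1 up and 3 down of 132, 3 up and 7 down of 129, and 6 up and 15 down of 133. In SBP against I/R it was 0 in every type. The shares called can be read against the 0.806%, 3.17%, 11.6% and 17.8% of all genes in I/R against sham and the 0.124%, 2.0%, 6.07% and 12.7% in SBP against sham.

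The pathway genes with the largest called changes are given by name. Slfn4, a Schlafen gene of myeloid cells, rose in I/R against sham in each of the 4 types. In myeloid cells it had 11.2, 2.57 and 4.35 CPM in the sham mice, 184, 979 and 279.8 CPM in the I/R mice and 126, 355 and 147 CPM in the SBP mice, with a log2 fold change of 5.91 ± 0.70 (SE) and an adjusted p of 0.00130 by limma. In fibroblasts it had 2.25, 0 and 2.43 CPM in the sham mice, 20.4, 69.8 and 14.5 CPM in the I/R mice and 11.5, 18.96 and 9.295 CPM in the SBP mice, with a log2 fold change of 3.68 ± 0.61 (SE) and an adjusted p of 0.00430. Socs3, the inhibitor of cytokine receptors that is induced by Stat3, also rose in the 4 types, by 2.87 ± 0.59 (SE) in myeloid cells and 1.63 ± 0.30 (SE) in endothelial cells on the log2 scale.

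In myeloid cells Ikbke, the kinase that activates Irf3 and Irf7, rose in I/R against sham mice, with 11.2, 12.9 and 2.903 CPM in the sham mice, 146, 467 and 83.2 CPM in the I/R mice and 100.4, 109 and 101 CPM in the SBP mice and a log2 fold change of 4.37 ± 0.64 (SE) (adjusted p 0.00271 by limma). Cd274 (PD-L1) and Ms4a4c rose by 2.52 and 2.24 on the log2 scale. Myeloid sums mix subtypes. Within resident macrophage-like nuclei 1 of 120 tested pathway genes, Slfn4, was called in I/R against sham and 0 in SBP against sham. Of all genes, 0.491% and 0.606% were called there. In SBP against sham, myeloid Ikbke was higher by 3.58 on the log2 scale, while Tlr3, the endosomal sensor of double-stranded RNA, fell, with 48.04, 39.5 and 44.99 CPM in the sham mice, 16.9, 13.2 and 14.96 CPM in the I/R mice and 11.9, 20.9 and 17.02 CPM in the SBP mice (log2 fold change -1.39 ± 0.24 (SE)).

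Fcgr1, a myeloid receptor for antibody, rose in I/R against sham in fibroblasts (2.58 ± 0.42 (SE)) and endothelial cells (1.97 ± 0.44 (SE)). Of the Schlafen genes, Slfn1 rose in endothelial cells (1.91 ± 0.40 (SE)) and Slfn2 in cardiomyocytes (1.66 ± 0.33 (SE)), where Ifit1bl1, a relative of Ifit1, rose too (1.30 ± 0.26 (SE)). Trim30b (1.89 ± 0.38 (SE)) and Ms4a4c (1.89 ± 0.50 (SE)) were called up in fibroblasts. Endothelial Fcgr1 and fibroblast Trim30b would not have passed the filter without the I/R mice, nor fibroblast Ms4a4c without either the I/R or the SBP mice. The filter thus favoured a rise over sham in these genes, and their rises are given as a description. Within resident macrophage-like nuclei Slfn4 was called (3.22 ± 0.54 (SE)), also with the I/R mice needed to pass, so the same holds for it. The summed myeloid markers were also higher in I/R than in sham mice without overlap, with UMIs for all 12 markers. In endothelial cells they lay at 342 to 419 CPM in sham mice, at 611 to 845 in I/R mice and at 402 to 549 in SBP mice. In cardiomyocytes they lay at 60.9 to 72.05, at 106 to 173 and at 69.2 to 104. Their part in these rises outside myeloid cells was not tested.

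In SBP against sham, Slfn4 was again the gene with the largest called rise, with log2 fold changes of 4.94 ± 0.70 (SE) in myeloid cells, 2.62 ± 0.61 (SE) in fibroblasts and 2.54 ± 0.41 (SE) in endothelial cells. Fcgr1 (1.71 ± 0.42 (SE)) and the Schlafen gene Slfn9 (1.55 ± 0.35 (SE)) rose in fibroblasts. Ikbke, a kinase that activates Irf3, and Helz2, a helicase of the interferon response, rose in myeloid cells (3.58 ± 0.64 (SE) and 1.43 ± 0.27 (SE)), and Phf11b fell there (-1.42 ± 0.33 (SE)).

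The 1 pathway gene called down in endothelial cells in I/R against sham was Samd9l, an antiviral restriction factor. It had 87.2, 87.3 and 89.9 CPM in the sham mice, 49.7, 58.3 and 59.9 CPM in the I/R mice and 57.998, 64.7 and 75.4 CPM in the SBP mice, with a log2 fold change of -0.65 ± 0.14 (SE) and an adjusted p of 0.0302 by limma, and the sham mice lay above all injured mice.

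In SBP against sham, endothelial Irf1, the factor that drives the interferon gamma response, fell, with 77.1, 73.4 and 82.4 CPM in the sham mice, 44.2, 50.4 and 57.8 CPM in the I/R mice and 36.5, 37.5 and 47.7 CPM in the SBP mice and a log2 fold change of -0.93 ± 0.16 (SE) (adjusted p 0.0131 by limma). Ifngr2, a chain of the interferon gamma receptor (-0.84 ± 0.17 (SE)), and H2-Q6, a nonclassical MHC class I gene (-1.19 ± 0.25 (SE)), fell too. In fibroblasts the Ifi200 genes Mndal (-1.17 ± 0.24 (SE)) and Ifi203 (-1.21 ± 0.20 (SE)) fell, and Ifi203 had 322, 196 and 289 CPM in the sham mice, 161, 126 and 116 CPM in the I/R mice and 98.5, 133 and 111 CPM in the SBP mice. The sham mice lay above all injured mice for Irf1 and Ifi203. Cardiomyocyte markers in the endothelial sums lay at 9314 to 11924 CPM in sham, 3439.7 to 6244 in I/R and 3482 to 4575 in SBP mice, and in the fibroblast sums at 5785 to 7285, 1838 to 2864 and 1997 to 2722, with UMIs for all 8 markers. Their part in these falls and in that of Samd9l was not tested. In fibroblasts the sham and injured mice of Ifi204, Ifi205 and Ifi207, of the same family, overlapped.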

How the data were processed

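Nuclei from frozen heart tissue of 9 mice were sequenced with a droplet kit that reads the 3′ ends of transcripts. The submitters' processing notes name Cell Ranger 4.0, STAR, Seurat 3.2.0 and GRCm38, whereas the study's methods give other versions of Cell Ranger and Seurat. The deposited values are the natural log of 1 plus the UMI count of a gene scaled by the authors to 10000 per nucleus. UMIs were recovered from them (tolerance 0.1 UMI, at least 99.999% whole). The tables held fewer nuclei than the study states. Replicates are separate mice, as the study's results give 9 samples from 9 individuals.

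Scrublet marked 85 nuclei (0.173%), too few for the caller to have worked, so doublets may remain. Nuclei were clustered with scanpy 1.11.5 (2000 variable genes less 62 interferon genes, 30 principal components, 20 neighbours, resolution 0.6, and 20 components and 0.3 within myeloid cells) and named from listed markers. UMIs were summed by mouse and type. Genes with 15 UMIs in all that passed, in 3 mice, a CPM floor (10 UMIs at median library size) entered limma 3.58.1 (R 4.3.3; trend and robust variance, 9 mice, 3 groups) as log2(CPM + 1). At least 20 nuclei in each mouse were required. The scripts were tested on simulated data.

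The members and lists were chosen with earlier results of these data known. The genes named are the called members of a type and contrast (at most 8), or the 3 with the smallest unadjusted p where none was called, 13 representatives of the roles (Irf7, Irf9, Stat2, Isg15, Usp18, Ifit3, Rsad2, Oas2, Ifih1, Ifi204, Zbp1, Rnf213 and Parp14), and for the pathway the 5 called genes with the largest change in each type and contrast plus Ifnar1, Ifnar2, Ifnb1, Ifng and a gene that is not reported here. Other genes were named after their values were seen. Alternatives were other scalings, filters, pseudocounts, thresholds of the thinning, cell typings, voom weights, a replicate block and leaving out each mouse. The replicate numbers were not taken to pair the mice. Same-numbered mice had correlations of their deviations from group means from -0.317 to 0.296. In fibroblasts 5 of 9 such pairs were above 0.1, against 4 of 18 pairs with unlike numbers. With so few mice these values cannot decide whether the numbers pair the mice.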

Additional observations from a re-analysis of the deposited data

Results flagged for a closer look

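Ifit2 had log2 fold changes of unlike sign in cardiomyocytes and endothelial cells. In SBP against sham mice its log2 fold change was 0.97 in cardiomyocytes, higher in every SBP mouse than in every sham mouse, and -0.39 in endothelial cells, lower in every SBP mouse, a gap of 1.36 between both. Neither was called by limma, and the difference between the types was not tested, so no change is read from either.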

How the results depend on the processing

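Leaving out a mouse aside, the alternatives gave 248 values of 36 comparison results, and 227 were counted as the same. For a count of members this meant a similar size without a move to or from 0. For a difference in shares it meant the same sign. Of 96 such values of the 8 called members, 82 kept the call. Over 9 fits that each left out 1 mouse, the myeloid calls of Oas3, Usp18 and Slfn5 were lost in 4, 5 and 5. That of Dtx3l in I/R against sham was lost in 7, and the other calls in 0. The causes of the exceptions were not tested, except that fits without a mouse or on 6 mice hold fewer mice. In endothelial cells, SBP against sham, 1 member was called with plain library totals, 1 without the filter, 2 with only the 6 mice compared, 1 with doublets kept and 1 with interferon genes kept for clustering. In fibroblasts, I/R against sham, 1 was called on means of the deposited logs and 4 with types from marker scores, and in SBP against sham 2 with the 6 mice and 0 on means of logs. In myeloid cells, I/R against sham, 1 was called without the filter, 1 with voom weights and 0 on means of logs, and in SBP against sham 5 with library totals, 1 without the filter, 5 with the 6 mice, 1 with voom weights and 0 on means of logs. In resident macrophage-like nuclei, SBP against sham, 1 was called with library totals. The share of positive nuclei reversed for I/R minus sham in cardiomyocytes at 500 UMIs (-0.0217 percentage points), and for SBP minus sham in cardiomyocytes with 1 or more genes (0.151) and in fibroblasts with all UMIs (1.03).

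Leaving out each mouse, members called ranged from 0 to 1 in cardiomyocytes (I/R against sham) and in endothelial cells (I/R and SBP against sham), from 1 to 2 in fibroblasts (SBP against sham), from 0 to 2 and from 1 to 5 in myeloid cells (I/R and SBP against sham) and from 0 to 2 in resident macrophage-like nuclei (SBP against sham). Members lower in SBP than in I/R ranged from 15 to 34 in fibroblasts and from 8 to 20 in monocyte-like nuclei. I/R minus sham in positive nuclei ranged from -0.0334 to 0.391 percentage points in cardiomyocytes, -0.445 to 2.88 in endothelial cells, -0.339 to 3.25 in fibroblasts and -1.29 to 6.00 in myeloid cells, each negative only without I/R replicate 2. With a replicate block, members called in I/R against sham, SBP against I/R and SBP against sham were 0, 0 and 0 in cardiomyocytes and endothelial cells, 3 (with Zbp1), 0 and 1 in fibroblasts and 2, 0 and 2 in myeloid cells. Leaving out I/R replicate 2 beside each count, and the fits of injury macrophage-like and monocyte-like nuclei, were chosen after seeing the data. Voom weights were not run for the myeloid subtypes. Members with few UMIs, such as Isg15, limit what 3 mice a group can show.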
